A study of Mus musculus with 7 samples.

Results

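The gene set described here holds 44 genes of the hepatic stellate cell and of the extracellular matrix, listed by symbol and arranged by role. There are 12 collagens, 11 glycoproteins and proteoglycans, 8 genes of matrix remodelling, 4 genes of the TGF-beta pathway and 9 stellate or mesenchymal markers. Of these, 43 were found among the 14889 genes of the deposited count table, Ctgf under its current symbol Ccn2, and Lox was not analysed here. The count filter kept 42 of the 43, and Fbln1, a fibulin of elastic matrix, fell below it. Livers came from ApoE-/- mice on the C57BL/6 background, given as 4 months old and fed Western diet for 3 months, so the gene deletion and the diet were shared by every animal. The 3 PX-478 mice were injected intraperitoneally with the compound at 40 mg/kg, bi-weekly in the wording of the labels, and the 4 saline mice with saline on the same schedule. PX-478 is a small molecule given to inhibit HIF-1α, a transcription factor that cells stabilise at low oxygen. The comparison asks how livers of treated mice differ from those of saline mice.

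Stellate cells lie between hepatocytes and sinusoidal endothelium, store vitamin A and make most of the liver's collagen. In injured liver they can become contractile myofibroblasts that express smooth muscle actin, and TGF-beta and PDGF are the best known signals that drive this change. The matrix they lay down combines fibrillar collagens, basement membrane proteins, proteoglycans and glycoproteins, which are crosslinked by lysyl oxidases and turned over by metalloproteinases under the control of TIMP inhibitors. The RNA came from whole liver, in which fewer cells of a type and less RNA per cell cannot be told apart.

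The promoters of Tgfbr2 and Timp3 are shown because these members had the smallest p-values of the set, and because the compound is used against a transcription factor with a short core motif, HIF-1. Sequences are from RefSeq (GRCm38.p6, which shares its coordinates with mm10), 5′ to 3′ on the strand of the gene, and capitals mark the HIF core motif GCGTG. The Tgfbr2 window is chr9:116175364-116175613 on the minus strand. The Timp3 window is chr10:86300162-86300371 on the plus strand and leaves out the bases next to the start that are annotated as exon.
Tgfbr2: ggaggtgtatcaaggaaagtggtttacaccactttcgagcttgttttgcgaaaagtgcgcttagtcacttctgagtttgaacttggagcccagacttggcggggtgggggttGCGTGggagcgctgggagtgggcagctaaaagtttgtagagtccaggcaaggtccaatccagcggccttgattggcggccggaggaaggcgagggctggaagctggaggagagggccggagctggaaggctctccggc
Timp3: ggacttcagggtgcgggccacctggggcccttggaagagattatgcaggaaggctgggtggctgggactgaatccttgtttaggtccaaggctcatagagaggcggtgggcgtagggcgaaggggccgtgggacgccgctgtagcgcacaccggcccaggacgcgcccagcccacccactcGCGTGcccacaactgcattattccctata
The motif begins 138 bases before the annotated start of Tgfbr2 and 69 bases before that of Timp3, counted to its first base. The promoter table held 29 of the 43 members, Lum not among them. With ACGTG and GCGTG searched on both strands in the 250 bases before the start, 18 of the 29 (62.1%) had at least 1 match, against 55.2% of the tested genes with an entry and 38.6% of all promoters in the table. A CArG box, the serum response element of contractile genes, searched with at most 1 C or G among its 6 central bases, was present in 7 of 29 (24.1%), against 8.24% of the tested genes and 8.64% of all promoters. A match is a description of the letters and not a site of binding.

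Libraries held 10285776 to 17257304 counted reads, and 3 reads corresponded to 0.188 to 0.260 CPM (counts scaled to library size, here with TMM factors), a floor that covers counting error only. All levels are given on this scale unless stated. The defining markers of the labelled tissue were present, with Alb at 16736 to 22558 CPM in PX-478 livers and 19239 to 25849 CPM in saline livers. Hif1a averaged 12.2 ± 1.12 CPM in PX-478 livers (SD, n = 3) and 12.7 ± 1.05 CPM in saline livers (SD, n = 4). Apoe, the deleted gene, still had 144 to 351 CPM in PX-478 livers and 130 to 284 CPM in saline livers, and which part of the gene those reads cover cannot be read from counts per gene. PX-478 replicate 2 was the shallowest library and had the smallest share of reads from the mitochondrial genome, 22.4% against 27.1% to 36.7% in the other 6, and the largest TMM factor, 1.29. PX-478 replicate 3 was the deepest library and had the smallest TMM factor, 0.888. Both libraries stood at opposite ends for the genes described here taken as a set. The direction counts of the set and of each role group are therefore given with and without each.

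No member passed the threshold of an adjusted p of 0.05 in edgeR's quasi-likelihood test, in which 1 of 13693 genes (0.0073%) did so. The smallest adjusted p among the members was 0.643, for Tgfbr2. At an unadjusted p under 0.05, Lum and Timp3 had higher levels in PX-478 (3.48% of all genes did so) and Tgfbr2 had a lower level (3.48% of all genes did so). These 3 of 42 are 7.14% of the members, and 954 of all genes tested (6.97%) passed the same limit, so the share was close to the background. The count and the background both moved with single libraries. The count was 5 of 42 members (11.9%) without PX-478 replicate 2, against 8.5% of all genes. Without PX-478 replicate 3 it was 5 of 42 (11.9%), against 7.31%. It was 1 of 43 (2.33%) without PX-478 replicate 1, against 3.94%, and 1 of 42 (2.38%) without saline replicate 1, against 6.05%. Without saline replicate 4 it was 2 of 42 (4.76%), against 6.65%. With the replicate number as a block it was 0, against 5.25% of all genes. Tgfbr2 was the single member whose groups did not overlap with lower levels in PX-478 (background 4.29%), and no member did so with higher levels (background 4.3%). Of the 42 log2 fold changes (PX-478 over saline), 25 were above 0 and 17 below, with a median of 0.06, against a median of -0.0035 over all genes tested, of which 49.7% were above 0. The 95% interval lay within a 2-fold change in either direction for 24 of 42 members (57.1%), against 55.3% of all genes. Standard errors of the members were 0.20 to 0.72 with a median of 0.34 on the log2 scale. DESeq2 likewise called 0 of the 43 members it tested (background 0.551%).

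**Figure D1:**
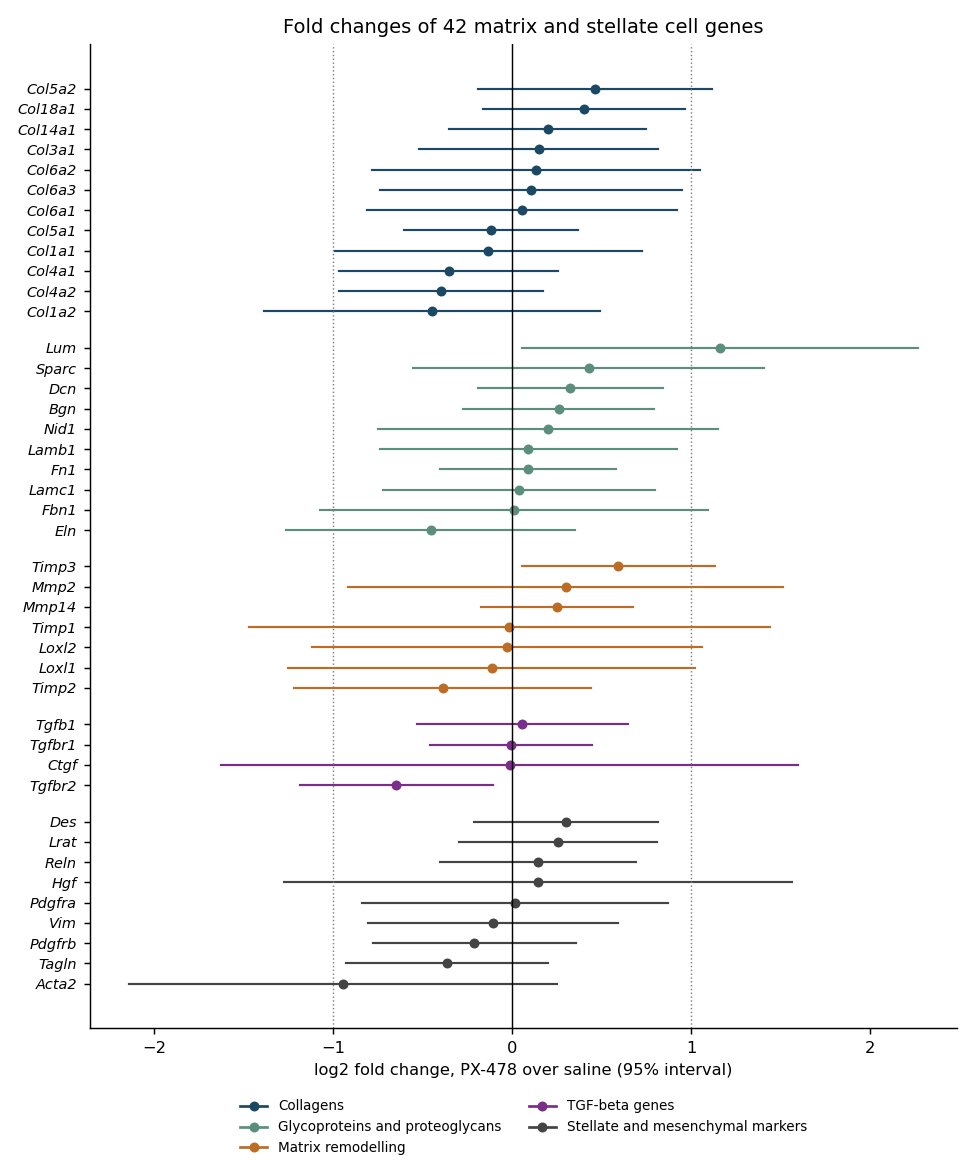
Log2 fold change, PX-478 against saline (x axis) for the 42 tested members (y axis), with 95% intervals as lines, coloured by role; dotted lines mark a 2-fold change. The intervals of Lum, Timp3 and Tgfbr2 exclude 0, those of Lum and Timp3 narrowly, with lower ends at 0.06 and 0.05. None of the 42 passed after adjustment over all genes.

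The clearest feature of the set was the spread among the PX-478 livers. The mean log2 CPM over the 42 members was 3.55, 4.00 and 2.99 in PX-478 replicates 1 to 3, against 3.49, 3.58, 3.40 and 3.60 in saline replicates 1 to 4. PX-478 replicate 2 lay above every saline library and replicate 3 below every one, while replicate 1 lay within them. For the 125 tested genes of the pathway lists below, the mean was 2.82, 3.09 and 2.49 in PX-478 replicates 1 to 3. In saline replicates 1 to 4 it was 2.83, 2.96, 2.79 and 2.93. Each of those lists, and the sinusoidal endothelial and cholangiocyte markers, also had replicate 2 above and replicate 3 below every saline library. This order was therefore not particular to the members. The means over all genes tested covered 3.28 to 3.45 in the 7 libraries. Of the 42 members, 18 (42.9%) had their highest level in PX-478 replicate 2 and 22 (52.4%) their lowest in PX-478 replicate 3, against 13.8% of all genes for each. No member was lowest in replicate 2 and none was highest in replicate 3. For 12 members (28.6%, against 3.64% of all genes) replicate 2 exceeded every saline library while replicate 3 was under every one. PX-478 replicate 1 stood inside the saline range for 28 of the 42. The SD of log2 CPM was larger in PX-478 than in saline for 28 members (66.7%, against 45.1% of all genes), with a median of 0.53 in PX-478 and 0.38 in saline, where the medians over all genes were 0.33 in PX-478 and 0.36 in saline. Without PX-478 replicate 2, 12 members were higher and 30 lower, with a median of -0.20, and without replicate 3, 33 were higher and 9 lower, with a median of 0.33. Neither left a member past the threshold. With scaling by library size alone, which moved the median of all genes to 0.15, 33 members were higher and 9 lower (median 0.26), and replicate 2 was highest for 35 members (83.3%, against 44.5% of all genes) and replicate 3 lowest for 23 (54.8%, against 21.4%). The part of depth or of the mitochondrial share in this pattern was not tested.

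**Figure D2:**
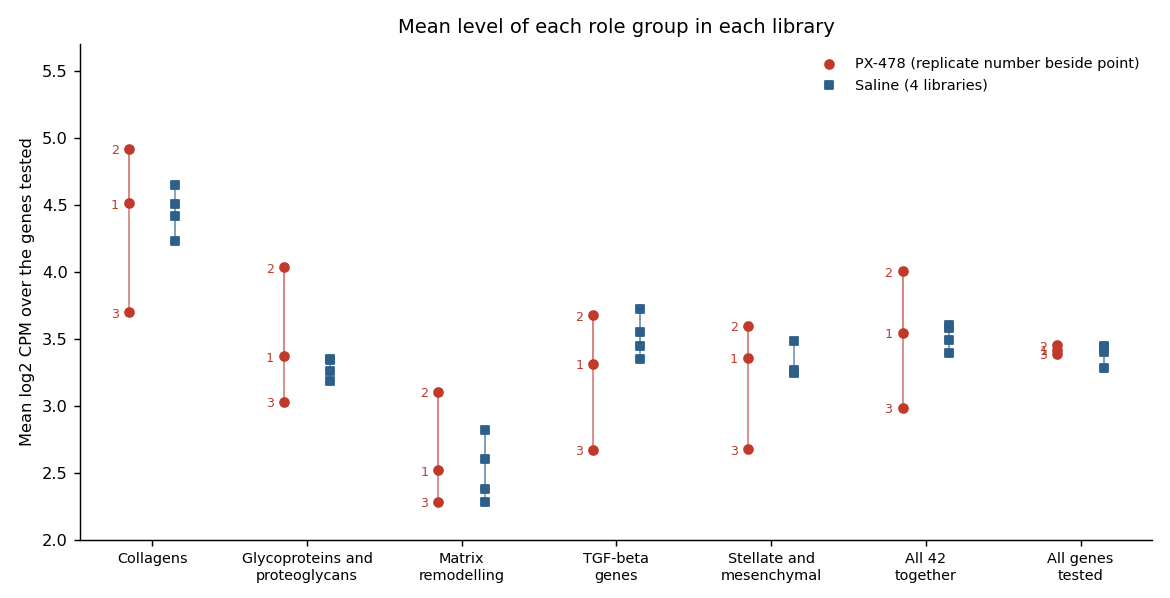
Mean log2 CPM (y axis) over the tested genes of each role group, over all 42 members and over all genes tested, in the 3 PX-478 libraries (circles, numbered) and the 4 saline libraries (squares); vertical lines join the lowest and highest library of a group. PX-478 replicate 3 is the lowest of the PX-478 libraries in every role group and replicate 2 the highest, while the means over all genes lie between 3.28 and 3.45.

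None of the 12 collagens passed the test. In PX-478, 7 of them were higher and 5 lower (median log2 fold change 0.08), and this balance turned with single libraries. Without PX-478 replicate 2, 2 were higher and 10 lower (median -0.32), without PX-478 replicate 3, 9 were higher and 3 lower (median 0.40), and without saline replicate 3, 5 were higher and 7 lower (median -0.10). In limma-voom 5 were higher and 7 lower (median -0.06). Their mean log2 CPM was 4.51, 4.92 and 3.70 in PX-478 replicates 1 to 3, against 4.51, 4.42, 4.23 and 4.65 in saline, and 10 of the 12 were lowest in PX-478 replicate 3. The 5 fibrillar collagens Col1a1, Col1a2, Col3a1, Col5a1 and Col5a2, the fibre-forming chains, were all lowest in that library, with a mean log2 CPM of 3.04, against 3.82 and 4.36 in PX-478 replicates 1 and 2 and 3.64 to 4.04 in saline. Col1a1, the main chain of type I collagen, had 13.5, 33.4 and 9.53 CPM in PX-478 livers and 15.2 to 28.1 CPM in saline livers, so the treated livers held both the highest and the lowest level. Its log2 fold change of -0.13 (SE 0.39) became -0.84 without PX-478 replicate 2 and 0.19 without replicate 3. Its partner Col1a2 had 4.81, 6.66 and 1.63 CPM in PX-478 livers and 4.03 to 7.64 CPM in saline livers.

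Col3a1 and Col5a2, chains of types III and V, are neighbours on chromosome 1 with 24.6 kb between them. Col3a1 had 68.1, 117 and 38.6 CPM in PX-478 livers, against 55.5, 74.8, 60.02 and 78.9 CPM in saline livers. PX-478 replicate 2 was above and replicate 3 below all 4 saline libraries, and the log2 fold change was 0.15 (SE 0.31). Col5a2 had 7.52, 8.32 and 4.57 CPM in PX-478 livers, against 4.95, 4.68, 5.29 and 4.76 CPM in saline livers. Replicates 1 and 2 exceeded all saline libraries and replicate 3 was under them, with a log2 fold change of 0.46 (SE 0.30).

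Col4a1 and Col4a2 encode the paired chains of basement membrane type IV collagen and lie head to head on chromosome 8, where the annotated spans overlap at their starts (11198423 to 11312889 and 11312805 to 11449287 in mm10). Use of strand in counting is not stated, and reads in the overlap cannot be told apart. Col4a1 had 21.6, 31.2 and 13.96 CPM in PX-478 livers, against 28.8, 18.7, 33.7 and 32.3 CPM in saline livers. Col4a2 had 24.3, 29.0 and 12.3 CPM in PX-478 livers, against 28.8, 26.9, 33.4 and 26.3 CPM in saline livers. For both genes replicate 3 was the lowest of all libraries and replicate 2 lay inside the saline range, and the log2 fold changes were -0.35 (SE 0.28) and -0.40 (SE 0.26). Both had negative values under each of the 17 other settings tried.

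Col6a1 and Col6a2, chains of the beaded-filament collagen VI, are 85.2 kb apart on chromosome 10. Col6a1 had 11.6, 10.7 and 3.78 CPM in PX-478 livers, against 10.4, 7.63, 4.49 and 10.9 CPM in saline livers. Col6a2 had 4.81, 9.38 and 3.00 CPM in PX-478 livers, against 7.16, 3.99, 3.17 and 6.45 CPM in saline livers. The lowest library of each was PX-478 replicate 3, the ranges overlapped, and the log2 fold changes were 0.06 (SE 0.40) and 0.13 (SE 0.42). The third chain, Col6a3, had a log2 fold change of 0.11, with 48.8, 66.4 and 17.6 CPM in PX-478 livers and 32.04 to 51.7 CPM in saline livers.

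Col18a1, the collagen whose C-terminal fragment is endostatin, was the most abundant member, also per length, at 125 CPM per kb of exon in PX-478 and 94.7 in saline. It did not follow the pattern of the other collagens, with 1082, 687 and 867 CPM in PX-478 livers, against 891, 697, 416 and 657 CPM in saline livers. PX-478 replicate 2 was here the lowest of the treated livers, the groups overlapped, and the log2 fold change was 0.40 (SE 0.26). Col14a1, which decorates collagen fibrils, and Col5a1 had log2 fold changes of 0.20 and -0.12.

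**Figure D3:**
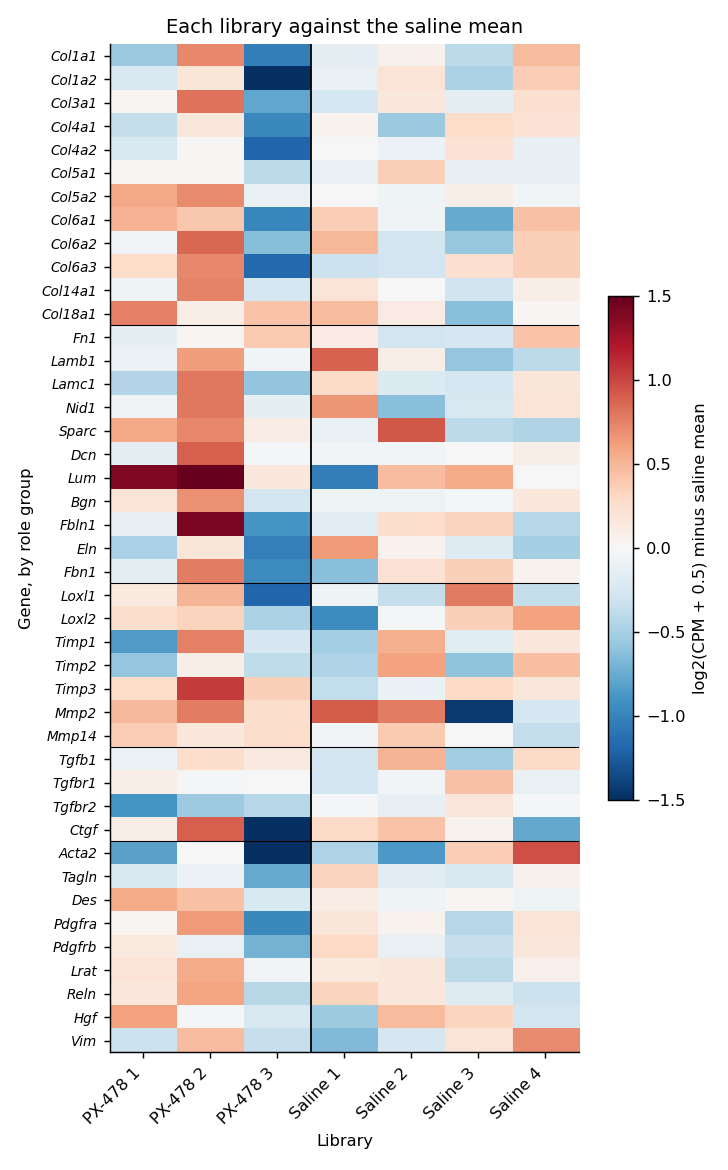
Log2(CPM + 0.5) minus the mean of the 4 saline libraries for each of the 43 members found (rows, by role) in each library (columns, PX-478 left of the line); red is above and blue below the saline mean, with colours capped at 1.5. Most collagen rows are red in PX-478 replicate 2 and blue in PX-478 replicate 3, and the row of Tgfbr2 is blue in all 3 PX-478 libraries.

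Of the 10 tested glycoproteins and proteoglycans, 9 were higher and 1, Eln, was lower in PX-478 (median log2 fold change 0.15), and none passed. This count rested on PX-478 replicate 2, without which Fn1, Sparc and Lum were higher and the other 7 lower (median -0.14), while without PX-478 replicate 3, 8 were higher and 2 lower (median 0.38). Their mean log2 CPM was 3.37, 4.03 and 3.03 in PX-478 livers, against 3.34, 3.35, 3.19 and 3.26 in saline livers. The small leucine-rich proteoglycans Dcn (decorin) and Lum (lumican), which bind collagen fibrils and set their spacing, are 47.3 kb apart on chromosome 10. Lum (Entrez Gene 17022, 97565501 to 97572703) had 6.41, 6.96 and 2.41 CPM in PX-478 livers, against 0.781, 3.12, 3.37 and 2.13 CPM in saline livers. PX-478 replicates 1 and 2 were above all saline libraries and replicate 3 was among them. The difference rested on 37 to 92 reads in the PX-478 libraries and 12 to 51 in the saline libraries. Its log2 fold change of 1.16 (SE 0.51, 95% interval 0.06 to 2.27) had an unadjusted p of 0.0408 and an adjusted p of 0.695, and it was 0.91 without PX-478 replicate 2 and 1.51 without replicate 3.

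Dcn had 40.4, 84.0 and 44.5 CPM in PX-478 livers, against 43.5, 43.7, 44.7 and 47.9 CPM in saline livers. Replicate 2 alone stood out, and the log2 fold change of 0.32 (SE 0.24) became -0.08 without it. Fn1, fibronectin, the second most abundant member per length at 38.1 CPM per kb in PX-478 and 35.9 in saline, had 375, 421 and 541 CPM in PX-478 livers, against 446, 336, 344 and 551 CPM in saline livers. The PX-478 range lay inside the saline range, with a log2 fold change of 0.09 (SE 0.23). Bgn, biglycan, and Sparc, a collagen-binding matricellular protein, stood at 0.26 (SE 0.25) and 0.43 (SE 0.45) on the log2 scale of fold change. The basement membrane genes Lamb1, Lamc1 and Nid1, for laminin chains and nidogen, stood at 0.09, 0.04 and 0.20. Of the elastic fibre genes, Eln (elastin) had 5.36, 8.77 and 3.52 CPM in PX-478 livers and 5.32 to 12.2 CPM in saline livers (log2 fold change -0.46, SE 0.37), and Fbn1 (fibrillin) had a log2 fold change of 0.01. Fbln1, below the count filter, had 0.348, 1.97 and 0 CPM in PX-478 livers, against 0.326, 0.607, 0.661 and 0.188 CPM in saline livers, near the floor of 3 reads in several libraries.

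Of the 7 genes of matrix remodelling, 3 were higher and 4 lower in PX-478, with a median of -0.01, and none passed. Without PX-478 replicate 2 the counts were again 3 and 4 (median -0.21), and without PX-478 replicate 3, 6 were higher and 1 lower (median 0.25). The mean log2 CPM of the group was 2.52, 3.11 and 2.284 in PX-478 livers, against 2.282, 2.82, 2.38 and 2.60 in saline livers. PX-478 replicate 2 was above every saline library, but replicate 3 was not below every one. Timp3 (Entrez Gene 21859, chromosome 10 from 86300412 to 86349505), the inhibitor of metalloproteinases that binds to the matrix itself, had the lowest p of the group. It had 19.2, 33.2 and 20.5 CPM in PX-478 livers, against 12.1, 14.7, 19.6 and 17.9 CPM in saline livers. Only the third saline library reached into the PX-478 range. This gave 0.59 on the log2 scale of fold change (SE 0.25, 95% interval 0.05 to 1.13), at an adjusted p of 0.683. It was 0.30 without PX-478 replicate 2 and 0.70 without replicate 3. Syn3, whose annotation overlaps Timp3, had 0.940 to 2.27 CPM over all libraries.

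Mmp14, the membrane-bound collagenase, had 81.2, 69.9 and 75.3 CPM in PX-478 livers, against 61.0, 81.9, 62.5 and 48.8 CPM in saline livers. One saline library exceeded the highest PX-478 level, and the log2 fold change was 0.25 (SE 0.20), the smallest standard error of the set. The gelatinase Mmp2 had a log2 fold change of 0.30 (SE 0.56), with 3.26 to 4.84 CPM in PX-478 livers and 0.661 to 5.41 CPM in saline livers. The inhibitors Timp1 and Timp2 stood at -0.01 (SE 0.67) and -0.39 (SE 0.38). Timp1 had 0.557 to 2.72 CPM in PX-478 livers and 0.847 to 2.26 CPM in saline livers. Syn1, whose annotated span overlaps it, had 0.151 to 1.56 CPM over all libraries. Whether exons overlap was not examined for this pair, for Timp3 and Syn3 or for Tagln and Pcsk7. Loxl1 and Loxl2, which crosslink elastin and collagen, stood at -0.12 and -0.03, each with a level under 6 CPM in every library.

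Of the 4 TGF-beta genes, 1 was higher and 3 were lower in PX-478 (median log2 fold change -0.01), and none passed. The counts were the same without PX-478 replicate 2 (median -0.36), and without PX-478 replicate 3, 3 were higher and 1 lower (median 0.02). The mean log2 CPM of the group was 3.31, 3.67 and 2.67 in PX-478 livers, against 3.45, 3.72, 3.55 and 3.35 in saline livers. PX-478 replicate 3 was below every saline library, but replicate 2 was not above every one. Tgfbr2 (Entrez Gene 21813, chromosome 9 from 116087695 to 116175363), the type II receptor that binds the ligand and activates the type I receptor, had 5.22, 6.81 and 7.44 CPM in PX-478 livers, against 9.90, 9.28, 11.5 and 10.02 CPM in saline livers. All 3 PX-478 libraries were below all 4 saline libraries. In reads, these were 75 to 114 in PX-478 libraries and 107 to 174 in saline libraries. Its log2 fold change of -0.65 had an SE of 0.25 and a 95% interval of -1.19 to -0.11, with an unadjusted p of 0.0223 and an adjusted p of 0.643. It was -0.51 without PX-478 replicate 1, -0.69 without replicate 2, -0.76 without replicate 3 and -0.50 with scaling by library size alone. Where the set as a whole put replicates 2 and 3 at opposite ends, Tgfbr2 was below every saline library in both.

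Tgfbr1, the type I receptor, had 30.2, 27.5 and 28.1 CPM in PX-478 livers, against 23.0, 27.4, 38.5 and 26.1 CPM in saline livers. The PX-478 range lay inside the saline range, and the difference was -0.01 on the log2 scale (SE 0.21, 95% interval -0.46 to 0.45). The ligand Tgfb1 averaged 14.1 ± 1.75 CPM in PX-478 livers (SD, n = 3) and 13.5 ± 4.57 CPM in saline livers (SD, n = 4), a log2 fold change of 0.06. The matricellular target gene Ctgf had 4.74, 8.62 and 0.392 CPM in PX-478 livers and 2.38 to 6.07 CPM in saline livers. Its highest and lowest library were both PX-478, the lowest with 6 reads, and the log2 fold change of -0.01 had the largest standard error of the set, 0.72. The value became -0.85 without PX-478 replicate 2, 0.53 without PX-478 replicate 3, -0.82 in limma-voom and -0.79 with the replicate number as a block.

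Of the 9 stellate and mesenchymal markers, 5 were higher and 4 lower in PX-478 (median log2 fold change 0.02), and none passed. Without PX-478 replicate 2, 3 were higher and 6 lower (median -0.25), and without PX-478 replicate 3, 7 were higher and 2 lower (median 0.36). Their mean log2 CPM was 3.36, 3.60 and 2.67 in PX-478 livers, against 3.27, 3.25, 3.24 and 3.48 in saline livers. The markers of the quiescent, vitamin A storing cell were counted in every library. Lrat, which esterifies retinol, had 8.74 to 13.5 CPM in PX-478 livers and 6.74 to 10.2 CPM in saline livers, with a log2 fold change of 0.26 (SE 0.26). Reln, reelin, had 25.2 to 51.4 CPM in PX-478 livers and 27.1 to 43.0 CPM in saline livers, and a log2 fold change of 0.15 (SE 0.25). Des, the muscle-type intermediate filament desmin that marks rodent stellate cells, had 17.7, 16.3 and 10.05 CPM in PX-478 livers and 11.3 to 12.9 CPM in saline livers, with a log2 fold change of 0.30 (SE 0.24). The growth factor Hgf had 0.914 to 2.02 CPM in PX-478 livers and 0.651 to 1.82 CPM in saline livers, with a log2 fold change of 0.14 (SE 0.66).

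Acta2, smooth muscle actin, the usual marker of the activated stellate cell, had 2.37, 4.54 and 1.17 CPM in PX-478 livers, against 3.13, 2.26, 5.95 and 9.27 CPM in saline livers. Saline replicates 3 and 4 were above all PX-478 libraries, and the others overlapped. This gave -0.95 on the log2 scale of fold change (SE 0.55, 95% interval -2.14 to 0.25), at an adjusted p of 0.768. It was -1.55 without PX-478 replicate 2 and -0.59 without replicate 3. The contractile marker Tagln had 6.53 to 10.7 CPM in PX-478 livers and 9.52 to 14.5 CPM in saline livers (log2 fold change -0.36, SE 0.26), and its annotation overlaps Pcsk7, which had 34.6 to 48.4 CPM over all libraries. Vim, the intermediate filament of mesenchymal cells, had 36.1, 62.9 and 35.6 CPM in PX-478 livers, against 28.5, 38.0, 52.0 and 74.7 CPM in saline livers. The saline range enclosed the PX-478 range, with a log2 fold change of -0.11 (SE 0.32). The PDGF receptors Pdgfra and Pdgfrb, through which stellate cells are driven to divide, stood at log2 fold changes of 0.02, with SE 0.40, and -0.21, with SE 0.26.

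**Figure D4:**
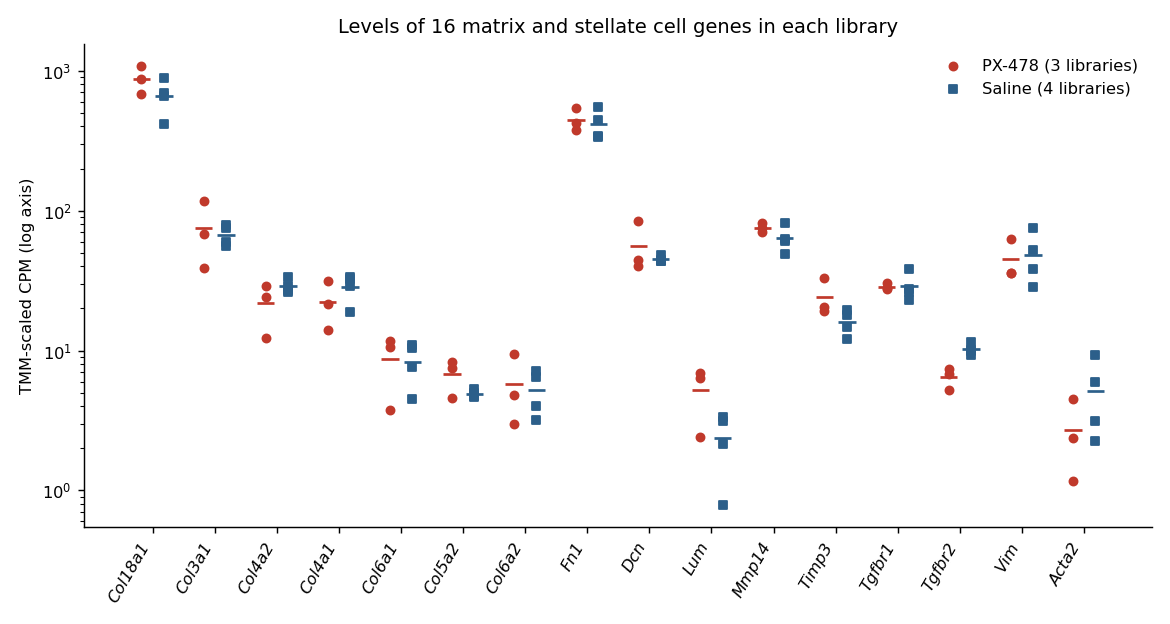
TMM-scaled CPM (y axis, log scale) of 16 members (x axis, by role) in the 3 PX-478 libraries (circles) and the 4 saline libraries (squares), with horizontal lines at group means. The groups are apart for Tgfbr2 and overlap for the other 15.

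Across the 17 other settings, 16 of the 42 members had the same sign of the log2 fold change throughout. Those with higher levels in PX-478 were Col5a2, Col18a1, Lum, Sparc, Timp3, Mmp14, Des and Lrat, and those with lower levels were Col1a2, Col4a1, Col4a2, Eln, Timp2, Tgfbr2, Acta2 and Tagln. The signs of the other 26 turned under at least 1 setting. The authors' deposited table, whose p is not adjusted, gave 9 of 43 members a p under 0.05 (20.9%, against 25.9% of all its genes), 5 higher and 4 lower in PX-478. In the authors' deposited table the smallest of these were 6.19e-05 for Tgfbr2, 0.00239 for Timp3 and 0.00530 for Lum. When each of the 14 count columns was entered as a library of its own, a setting chosen after seeing the data, 2 of 42 members (4.76%) passed, against 9.97% of all genes. These were Timp3 at 0.60 (adjusted p = 0.0348) and Tgfbr2 at -0.65 (adjusted p = 0.00374), but the 2 columns of a sample differ by less than sampling noise and are not independent. Unadjusted p-values of that edgeR fit were 5.59e-05 for Tgfbr2, 0.00267 for Timp3 and 0.00588 for Lum, close to the authors' values. In the same fit 26.1% of all genes had an unadjusted p under 0.05. Whether the authors' test also took each column as a library was not tested.

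Other genes of the same pathways were described by lists. None of their 125 tested genes passed, 66 were higher and 59 lower, the median log2 fold change was 0.01, and 8 (6.4%) had an unadjusted p under 0.05, against 6.97% of all genes. The groups did not overlap for 4 of the 125 with higher levels in PX-478 and for 4 with lower levels. Over all genes the shares were 4.3% and 4.29%. Of 25 genes of collagen synthesis and processing, 13 were higher and 12 lower, with a median of 0.02. The smallest p-values were those of Mia3, which loads procollagen into transport carriers, at 0.83 (SE 0.25, adjusted p = 0.508), and Ppib, a prolyl isomerase, at -0.77 (adjusted p = 0.707). Mia3 had 307, 142 and 199 CPM in PX-478 livers, against 95.1, 127, 132 and 131 CPM in saline livers, so the groups did not overlap. Of 42 other matrix proteins, 24 were higher and 18 lower (median 0.14), and the 5 with an unadjusted p under 0.05 (11.9%) all had lower levels in PX-478, against 3.48% of all genes. They were Spon2 at -1.48, Lamb3 at -1.31, Col15a1 at -0.83, Col12a1 at -0.80 and Col5a3 at -0.68. Spon2, a secreted spondin, had 3.07, 4.99 and 2.22 CPM in PX-478 livers, against 15.8, 11.8, 6.48 and 4.197 CPM in saline livers.

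Of 19 matrix proteases and inhibitors, 7 were higher and 12 lower (median -0.13), with the smallest p for Adamts9 at -0.72 and Mmp23 at -0.49. Of 27 TGF-beta signalling genes, 16 were higher and 11 lower (median 0.10). Smad3, the transcription factor that carries the receptor signal to the nucleus, had 25.3, 22.2 and 22.3 CPM in PX-478 livers, against 16.2, 21.9, 9.91 and 15.2 CPM in saline livers. All PX-478 libraries were above all saline libraries, at a log2 fold change of 0.56 with SE 0.25 (adjusted p = 0.695), opposite in sign to that of Tgfbr2. Tgfb3, a second ligand, stood at -1.67 (SE 0.78) with 0.457 to 0.756 CPM in PX-478 livers and 0.434 to 4.49 CPM in saline livers. It had 7 to 10 reads in PX-478 libraries and 30, 5, 68 and 20 in saline replicates 1 to 4. Its lowest level was in saline replicate 2 and its highest in saline replicate 3. Of 12 PDGF ligands and stellate growth factors, 6 were higher and 6 lower (median 0.05), with the smallest p for Met at 0.47 and Agtr1a at 0.34.

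Markers of cells that the tissue could hold were listed beside the members, and none of their genes passed. Of 21 other stellate cell markers tested of 23, 14 were higher and 7 lower, with a median of 0.25. Summed levels here and below cover all genes of a list that were found, also those not tested. For the stellate markers they were 293 to 521 CPM in PX-478 livers and 290 to 426 CPM in saline livers, and Gfap was at 0 in 2 saline libraries. Rgs5, a pericyte regulator of G-protein signalling, had 1.25, 2.42 and 2.02 CPM in PX-478 livers, against 0.521, 0.260, 0.264 and 0.376 CPM in saline livers (log2 fold change 2.38, SE 0.69, adjusted p = 0.494). It was the 1 gene of the list whose groups did not overlap with higher levels in PX-478 (background 4.3%). The levels of Rgs5 rested on 18 to 32 reads in PX-478 libraries and 3 to 8 in saline libraries, with saline replicate 2 at the floor of 3 reads. Cygb, the cytoglobin of stellate cells, had 18.5, 30.7 and 13.96 CPM in PX-478 livers, against 14.7, 10.1, 16.3 and 13.3 CPM in saline livers (0.63, adjusted p = 0.695).

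The mean log2 CPM of these stellate markers was 2.92, 3.37 and 2.66 in PX-478 livers, against 2.98, 2.71, 2.33 and 2.69 in saline livers, so PX-478 replicate 2 was again the highest, while replicate 3 lay within the saline range. Of 16 sinusoidal endothelial markers, 13 were higher and 3 lower (median 0.16), led by Kdr at 0.98 and Oit3 at 0.57, and the summed level was 485 to 635 CPM in PX-478 livers and 460 to 554 CPM in saline livers. Of 10 portal fibroblast and mesothelial markers tested, 6 were higher and 4 lower (median 0.04), with summed levels of 13.1 to 23.3 CPM in PX-478 livers and 11.2 to 19.4 CPM in saline livers. Fap at -1.09 and Mgp at 0.79 had the smallest p of that list, and Upk1b was at 0 in PX-478 replicate 3 and in every saline library. Of 5 vascular smooth muscle markers tested, 3 were higher and 2 lower (median 0.06), with Smtn at 0.45 and Myh11 at -0.22 of smallest p and summed levels of 134 to 261 CPM in PX-478 livers and 161 to 225 CPM in saline livers. Cnn1, Lmod1 and Actg2 of that list were at 0 in at least 1 library. The 9 cholangiocyte markers tested were 5 higher and 4 lower (median 0.14), with Ehf at 0.84 and Spp1 at 0.30 of smallest p, summed at 129 to 169 CPM in PX-478 livers and 99.98 to 158 CPM in saline livers.

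The macrophage list had the lowest median of the lists described. Of 16 Kupffer cell and macrophage markers, 3 were higher and 13 lower (median log2 fold change -0.51), and 6 (37.5%) had an unadjusted p under 0.05, all lower, against 3.48% of all genes. Lyz2, lysozyme, had 24.3, 25.2 and 28.5 CPM in PX-478 livers, against 38.6, 59.5, 57.0 and 71.4 CPM in saline livers (-1.12, adjusted p = 0.179). Cd68, a lysosomal membrane protein, had 12.7, 14.2 and 14.6 CPM in PX-478 livers, against 21.4, 25.3, 28.3 and 29.3 CPM in saline livers (-0.91, adjusted p = 0.264). Both were under every saline library in all 3 treated livers, where PX-478 replicates 2 and 3 stood close together. The groups were apart in this direction for 5 of the 16, against 4.29% of all genes. DESeq2, which called 82 of 14880 genes (0.551%), called Lyz2, Cd68 and Gpnmb of this list. The list summed to 361 to 478.4 CPM in PX-478 livers and 408 to 744 CPM in saline livers. Of 12 hepatocyte markers, 3 were higher and 9 lower (median -0.31), led by Ttr at -0.57 and Ahsg at -0.48, and of 8 lymphocyte markers tested, 1 was higher and 7 lower (median -0.42), with Ptprc at -0.38. The hepatocyte list summed to 46094 to 53151 CPM in PX-478 livers and 49521 to 68792 CPM in saline livers, and the lymphocyte list to 16.4 to 25.8 CPM in PX-478 livers and 21.9 to 35.8 CPM in saline livers, where Cd3e, Cd3d, Cd3g, Cd8a and Cd79a were each at 0 in at least 1 library. The part of these cell types in the members' values was not tested.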

How the data were processed

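Liver RNA of 7 ApoE-/- mice was sequenced, 3 given PX-478 and 4 given saline, and groups and replicate numbers come from the sample titles. The labels do not say how the animals were housed or the samples handled, and p-values therefore measure only how these libraries vary. The authors deposited whole-number read counts per gene, without normalization. The submitters' processing notes name featureCounts, edgeR and mm10 with no versions, while the aligner is not given in those notes. Per the file headers, the authors also deposited, per gene, a log2 fold change (PX-478 relative to saline) and the unadjusted p-value of their own test. The table's 7 per-sample averages were left aside. Each sample has 2 count columns, where the design had assumed 1. Over genes with more than 20 reads, both columns of a sample gave a chi-square per gene of 0.291 to 0.765, while different libraries of 1 group gave 49.1 to 145. Columns of a sample thus differed by less than sampling noise, and their rounded mean was used as 1 sample.

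Genes were filtered with filterByExpr, scaled by TMM and compared with edgeR 4.0.16 (R 4.3.3), using glmQLFit with robust dispersions and glmQLFTest, with Benjamini-Hochberg adjustment over 13693 genes and a threshold of 0.05. The biological coefficient of variation was 0.325. Standard errors divide the size of the log2 fold change by the root of F, and intervals are at 95%. Mean log2 CPM uses a prior count of 2. Values per kb use the union of exons in GENCODE vM21, and positions are from RefSeq. The test was also tried on simulated counts, drawn with the means, dispersions and library sizes of the real data. Alternatives were other scalings, no count filter, DESeq2 1.42.0, limma-voom (limma 3.58.1), a replicate block, each count column alone, no mitochondrially encoded genes and leaving out each library. Entering all 14 columns as libraries was chosen after seeing the data. The members and lists were chosen with earlier results of these data known. Values in every library are given for members with an unadjusted p under 0.05 or without overlap, for the member of smallest p and of highest mean in each role group, and for neighbouring pairs, and of each other list the 2 genes of smallest p are named, except 1 gene that is not reported here. Col1a1, Col1a2, Col6a3, Eln, Ctgf and Des were added to these after their values were seen. The other genes named at an unadjusted p under 0.05, which are Col15a1, Col12a1, Col5a3 and Gpnmb, were added in the same way.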

Additional observations from a re-analysis of the deposited data

Results flagged for a closer look

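Among the 43 members found, 1 had a saline library far from the others of its group. Col5a1, the chain that starts type V collagen fibrils, had 15.95, 15.8 and 11.7 CPM in PX-478 livers, against 20.1 CPM in saline replicate 2 and 14.3 CPM in each of the other 3 saline livers. Chance flags about 1 in 20 groups.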

How the results depend on the processing

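The 42 genes compared here with 17 other settings were 16 members and 26 genes of the other lists, and not the 42 members tested. Of the 714 comparisons, 676 kept their direction and side of the threshold, 16 passed it, 0 lost it and 22 changed sign. Of these 42 genes, 33 changed sign under no setting. Numbers of genes past the threshold, 0 higher and 1 lower in PX-478, became 46 and 36 in DESeq2, 643 and 717 with all 14 columns as libraries, and 1 and 2 with the replicate block. With library size alone 4 were higher, and in limma-voom 0 were lower. Leaving out a library gave 0 to 4 higher and 1 to 3 lower. Members past the threshold were 1 higher and 1 lower with all 14 columns, and genes of the other lists were 8 higher and 16 lower with all 14 columns and 3 lower in DESeq2. Median log2 fold changes of the role groups moved as follows: collagens to -0.32 without PX-478 replicate 2 and 0.40 without replicate 3; glycoproteins and proteoglycans to -0.14 and 0.38 without the same libraries; matrix remodelling to 0.20 with library size alone and -0.21 to 0.25 on leaving out a library; TGF-beta genes to -0.32 in limma-voom, -0.34 with the replicate block and -0.36 to 0.057 on leaving out a library; stellate markers to -0.25 without PX-478 replicate 2 and 0.36 without replicate 3. Sign changes were Tgfbr1 at 0.15 with library size alone and 0.019 in limma-voom, Vim at 0.10 with library size alone and 0.17 with the replicate block, and Col6a1 at -0.055 in limma-voom. On leaving out a library, the log2 fold change ran over -0.34 to 0.46 for Col3a1, -0.21 to 0.42 for Col6a1, -0.41 to 0.44 for Col6a2, -0.085 to 0.52 for Dcn, -0.077 to 0.25 for Fn1, -0.14 to 1.16 for Mgp, -0.51 to 0.34 for Myh11, -0.10 to 0.17 for Tgfbr1 and -0.44 to 0.18 for Vim. The cause was not tested. Same-numbered PX-478 and saline libraries deviated together with correlations of -0.021, -0.074 and -0.0017, none over 0.1, and none of them correlated best with its own number, so the numbers were not taken as pairs. With the replicate block, 0 members passed. Depth limits members such as Timp1, Hgf and Ctgf, which have under 20 reads in some libraries.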
